A study of Homo sapiens with 2 samples.

Results

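HMGA1, HMGA2, LIN28A, LIN28B, IGF2BP1, IGF2BP2 and IGF2BP3 are genes from families that are active in the embryo and often active in tumours. Their RNA was compared between a CREB1 knockout clone of HCT116, a human colorectal carcinoma cell line, and HCT116 cells with wild-type CREB1. All 7 genes were found by Ensembl identifier among 57820 gene rows, and each had 1 row. The knockout is a single-cell clone that lacks CREB1 per the labels, obtained after CREB1 guide RNAs were delivered with PX461, a plasmid for a Cas9 that nicks DNA. Both cultures were kept in DMEM with fetal bovine serum and antibiotics, ribosomal RNA was removed, and strand-specific libraries were made from total RNA. Each genotype was represented by 1 library, so a difference between genotypes, clones, cultures or library preparations cannot be told apart. The genes were selected on membership of these families with their ratios between the same 2 libraries in view, HMGA2 among them, so their values are a description and carry no test.

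HMGA1 and HMGA2 are small chromatin proteins that bind AT-rich DNA in its minor groove through AT-hook motifs. LIN28A and LIN28B are RNA-binding proteins that hold back the maturation of the let-7 microRNAs, and let-7 in turn represses HMGA2, LIN28B and the IGF2BP genes through sites in their 3′ untranslated regions (UTRs). IGF2BP1, IGF2BP2 and IGF2BP3 bind mRNAs, such as those of IGF2, MYC and ACTB, and affect their stability, localisation and translation. CREB1, the gene targeted by the guide RNAs, encodes a transcription factor that binds the cAMP response element.

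The let-7 family is shown first because it ties the 3 gene families together. In the RefSeq annotation (GRCh38.p14), all 9 mature let-7 and miR-98 sequences share the seed, bases 2 to 8, which is in capitals in these 3.
hsa-let-7a-5p: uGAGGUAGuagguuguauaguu
hsa-let-7d-5p: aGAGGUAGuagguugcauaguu
hsa-miR-98-5p: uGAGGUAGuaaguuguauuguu
The annotated 3′ UTR of each of the 7 genes held at least 1 copy of CTACCTC, the DNA letters complementary to that seed, counted on the sense strand of the principal transcript. Such a match is present in 8.57% of 19114 protein-coding genes with an annotated 3′ UTR. HMGA2, LIN28B and IGF2BP1 had 4 matches each, a number reached by 12 genes in all (0.0628%). HMGA1, LIN28A, IGF2BP2 and IGF2BP3 had 1 match each. These shares do not adjust for 3′ UTR length, which ran from 1347 bases in HMGA1 to 6206 in IGF2BP1. The median was 1127 bases in the other expressed protein-coding genes. Since let-7 was already known to act on these families, the matches carry no test. The matches of the expressed members follow, with the matching bases in capitals, and with an A opposite the first base of let-7 also in capitals where it is present.
HMGA2 match 1: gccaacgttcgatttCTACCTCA
HMGA2 match 2: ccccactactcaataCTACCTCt
HMGA2 match 3: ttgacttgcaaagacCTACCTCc
HMGA2 match 4: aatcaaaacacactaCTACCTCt
HMGA1 match: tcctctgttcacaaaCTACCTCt
IGF2BP2 match: aacacacagaagaagCTACCTCA
IGF2BP3 match: tgcatttttactcaaCTACCTCA
The first HMGA2 match begins at base 21 of its 3′ UTR of 3003 bases, and it is the HMGA2 match with the full 8 bases, CTACCTCA. Coordinates are those of the printed stretch, which holds flanking bases as well as the match. For this match the stretch is chr12:65963298-65963320 (GRCh38, plus strand). The HMGA1 match, in the stretch chr6:34245829-34245851 on the plus strand, has 7 bases. Those of IGF2BP2 (stretch chr3:185644220-185644242) and IGF2BP3 (stretch chr7:23311795-23311817), both on the minus strand, have 8. The coordinates come from GENCODE release 29, whereas the deposited counts were made on hg19, so they place the sequences and no reads. A match is a string of letters, not a measured binding site.

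Expected counts, the authors' estimates of reads per gene, summed to 31178309 in the knockout library and 34511074 in the wild-type library. Levels are given below as CPM, counts scaled to library size, after TMM scaling, and ratios are knockout over wild-type with a 95% interval that covers counting error only. A gene counts as expressed at a mean of at least 1 CPM, and it is called higher or lower at a ratio of at least 2-fold whose interval excludes no difference. A count over the whole gene does not check the genotype, and reads over the edited site were not examined here. CREB1 had 499 counts in the knockout and 614 in the wild-type library (log2 ratio -0.23, interval -0.40 to -0.05). Its relative CREM was called higher (470 and 217 counts, 2.28-fold), and ATF1 had 198 and 246 counts (log2 ratio -0.24, interval -0.52 to 0.04). The colorectal epithelial markers EPCAM, CDH1, KRT8, KRT18, KRT19, CDX2 and CLDN4 were expressed in both libraries, with 0 of 7 called and the widest ratios in CLDN4 (-0.36) and KRT18 (-0.26). Among all expressed genes, 1.28% were called higher and 1.64% lower. VIL1 and LGALS4 lay under the expression limit and CDX1 was at 0 counts. Of 11 markers of other cell types, COL1A1 (2.78 and 2.47 CPM) and ACTA2 (2.97 and 2.85 CPM) were expressed and not called, and PTPRC, CD3E and COL1A2 were at 0 counts in both libraries. CD68, a macrophage marker under the expression limit, had 1.4 expected counts in the knockout and 32.72 in the wild-type library (log2 ratio -4.42, interval -10.32 to -2.39), and it is called lower when no filter is used. The part of these markers in the members' ratios was not tested. The 11 markers summed to 6.44 CPM in the knockout and 6.87 CPM in the wild-type library.

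HMGA2 and HMGA1 lay on opposite sides of no difference. In knockout cells the HMGA2 level was 2.18 times that of wild-type cells, whereas HMGA1 was 1.41-fold lower, short of the 2-fold limit. IGF2BP3 was 1.41-fold and IGF2BP2 1.18-fold higher, also short of it. LIN28A, LIN28B and IGF2BP1 were below the expression limit, with at most 20 counts in either library. Among the 4 expressed members, 1 was called higher, where 1.28% of 12886 expressed genes were called higher, and 0 were called lower, where 1.64% were. The members were chosen with this contrast in view, so nothing is read from that count. Fewer cells with a transcript and less of it per cell cannot be told apart in bulk RNA.

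**Figure D1:**
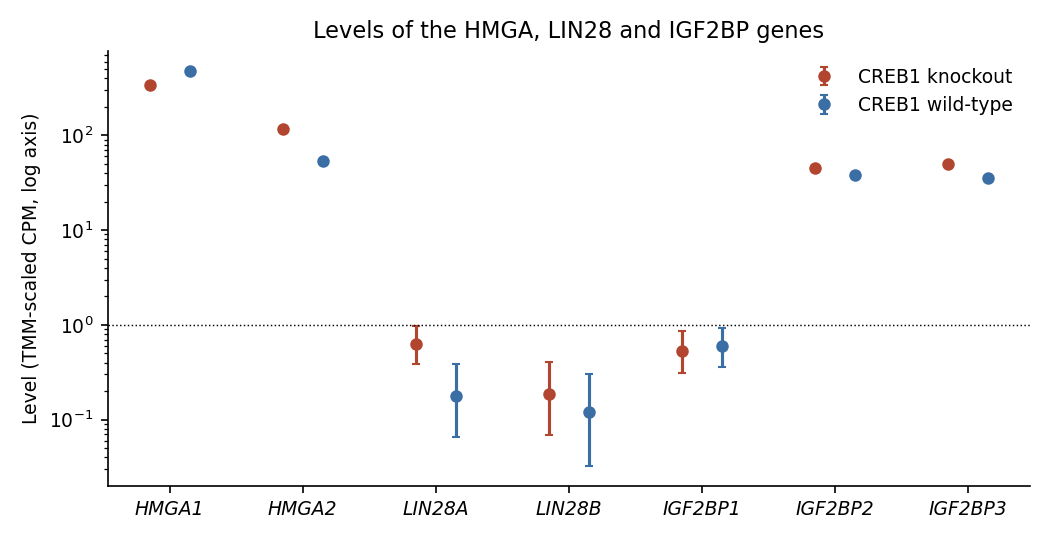
Level of each gene in TMM-scaled CPM on a log axis, in the knockout library (red, left of each pair) and the wild-type library (blue), with 95% Poisson counting intervals and a dotted line at 1 CPM. HMGA1 is lower in the knockout library (339 and 478 CPM), HMGA2 is higher there (117 and 53.7 CPM), and LIN28A, LIN28B and IGF2BP1 lie below the line in both.

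HMGA1 had 10854 counts in the knockout library and 16075 in the wild-type library, which is 339 CPM (interval 333 to 346) and 478 CPM (470 to 485). The log2 ratio was -0.49, with an interval of -0.53 to -0.46. HMGA1 was lower in the knockout library by more than counting error, and a ratio this low or lower was found in 7.72% of expressed genes. By mean CPM, a scale that does not adjust for transcript length, it ranked 139th of 11640 expressed protein-coding genes. It has many processed pseudogenes, copies made from its mRNA, to which reads could be assigned. The 8 of them with a row held 2 counts in the knockout and 2 in the wild-type library in total. All 7 members had whole-number expected counts in both libraries, so no fractional assignment of reads shows in their values.

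HMGA2 had 3734 counts in the knockout and 1806 in the wild-type library, which is 117 CPM (113 to 121) and 53.7 CPM (51.2 to 56.2). The ratio was 2.18-fold with an interval of 2.06 to 2.30, so its lower bound also lay above the 2-fold limit. Of all expressed genes, 0.861% were at least as high, and HMGA2 ranked 101st from the top among expressed protein-coding genes by log2 ratio (1.12). The protein-coding genes most like it in ratio, among 591 of similar mean CPM, were TIAM1 (log2 ratio 1.11), COL18A1 (1.07) and CAMK2D (1.04). With 2 libraries, likeness is the difference between 2 ratios, here 0.016 to 0.077, and carries no more than that. For HMGA1 the nearest of 76 such genes were P4HB (-0.53), RPL5 (-0.40) and LGALS1 (-0.38).

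A pair of transcripts from the opposite strand lie at the HMGA2 locus. RPSAP52, a transcribed pseudogene that overlaps the start of HMGA2 in GENCODE, had 1 count in the knockout and 9 in the wild-type library, a ratio of 8.55-fold lower with an interval of 1.19 to 375. HMGA2-AS1 had 12 and 10 counts (ratio 1.26-fold, interval 0.50 to 3.26). Both are far below HMGA2 itself, and both are under the expression limit. The libraries were strand-specific, but no source used here gives the strand setting of the counting, so reads of HMGA2 and of its antisense genes may not be fully apart.

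The balance within the HMGA family differed between the libraries. HMGA2 made up 25.6% of HMGA counts in the knockout library (exact binomial interval 24.9% to 26.3%) and 10.1% in the wild-type library (9.66% to 10.6%). The ratio of HMGA2 to HMGA1 counts was 3.06 times as high in the knockout library, with a counting interval of 2.88 to 3.26, and this value does not depend on how the libraries are scaled. Summed over both genes, the family stood at 456 CPM in the knockout and 531 CPM in the wild-type library (log2 ratio -0.22). Per kilobase of the principal transcript, HMGA1 remained the larger part, with 177 and 249 CPM per kilobase, against 26.1 and 12 for HMGA2. On that scale HMGA2 made up 12.9% of the family in the knockout and 4.60% in the wild-type library. With the length of all annotated exons instead, 15403 bases for HMGA2 in place of 4473, its share was 4.94% and 1.67%.

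**Figure D2:**
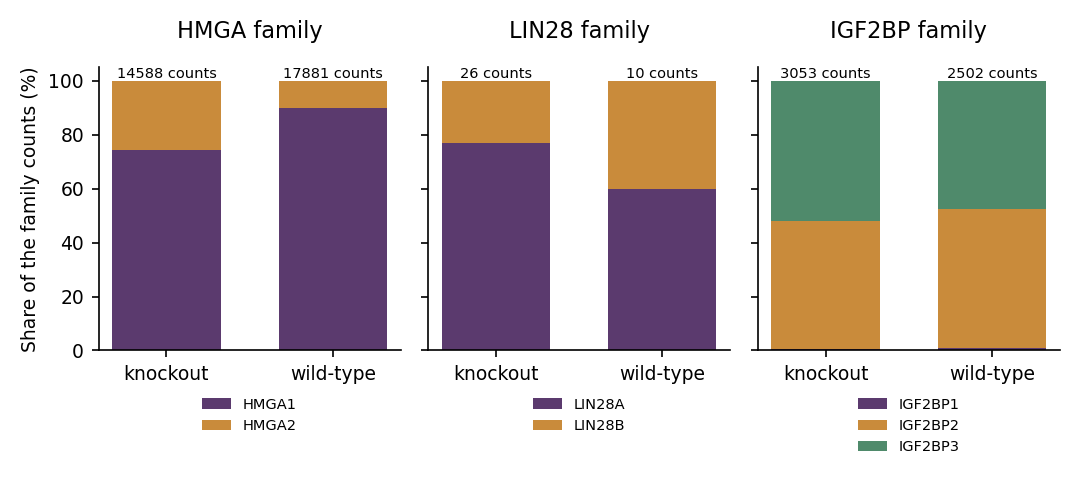
Share of each family's summed counts held by each gene, in percent, in the knockout library (left bar) and the wild-type library (right bar), with the family's total count above each bar. HMGA2 holds 25.6% of HMGA counts in the knockout and 10.1% in the wild-type library, while the LIN28 bars rest on 26 and 10 counts.

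LIN28A and LIN28B were close to the lower end of detection. LIN28A had 20 counts in the knockout library and 6 in the wild-type library, or 0.625 CPM (0.382 to 0.966) and 0.178 CPM (0.0654 to 0.388). The log2 ratio was 1.73 and its interval, 0.44 to 3.42, excluded no difference, but the mean level of 0.402 CPM kept it out of the calls. Without the expression filter LIN28A is called higher, beside 1.94% of 23251 genes with at least 1 count. LIN28B had 6 and 4 counts, or 0.188 and 0.119 CPM, and its ratio of 1.58-fold had an interval of 0.374 to 7.60, so a difference was not detectable at this depth. The change in the ratio of LIN28A to LIN28B, 2.22-fold with an interval of 0.467 to 10.6, was not detectable either. LIN28B-AS1 and the pseudogenes LIN28AP1 and LIN28AP2 were at 0 counts.

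LIN28A is best known from pluripotent stem cells, and the genes that mark those cells were at similarly low counts. NANOG, PRDM14 and DPPA4 were at 0 counts in both libraries. POU5F1 had 1 count in the knockout and 3 in the wild-type library, SOX2 had 2 and 4, ZFP42 had 0 and 4, and SALL4 had 11 and 15. Of 19 other oncofetal and stem cell genes with a row, PROM1 was the one that reached the expression limit (301 and 450 counts, log2 ratio -0.51), and it was not called. AFP, an oncofetal serum protein, and CEACAM5 were at 0 counts, and GPC3 had 8 and 12.

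The IGF2BP family was represented almost wholly by IGF2BP2 and IGF2BP3. IGF2BP3 had 1586 counts in the knockout and 1187 in the wild-type library, which is 49.6 CPM (47.2 to 52.1) and 35.3 CPM (33.3 to 37.3). Its ratio was 1.41-fold, with an interval of 1.30 to 1.52, and 7.85% of expressed genes were at least as high. IGF2BP2 had 1450 and 1295 counts, which is 45.3 CPM (43.0 to 47.7) and 38.5 CPM (36.4 to 40.6). Its ratio was 1.18-fold (1.09 to 1.27), and 22.7% of expressed genes were at least as high. Both were higher in the knockout library by more than counting error and neither was called.

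IGF2BP1 had 17 counts in the knockout and 20 in the wild-type library, or 0.532 CPM (0.310 to 0.851) and 0.594 CPM (0.363 to 0.918). Its ratio of 0.894 had an interval of 0.440 to 1.80, so no difference was detectable at this depth. It held 0.557% of the family's counts in the knockout library (interval 0.325% to 0.890%) and 0.799% in the wild-type library (0.489% to 1.23%). IGF2BP3 held 51.9% and 47.4%, and the ratio of IGF2BP3 to IGF2BP2 counts was 1.19 times as high in the knockout library (1.07 to 1.33). The family sum was 95.5 CPM in the knockout and 74.4 CPM in the wild-type library (log2 ratio 0.36). The expressed genes most like IGF2BP3, among 1316 of similar mean CPM, were CPS1, SMG8 and VPS18 (each 0.49). For IGF2BP2 they were SEL1L, ANKRD11 and DPF2 (each 0.24, of 1317 genes).

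Across the members, the order of levels per kilobase of the principal transcript was alike in both libraries from HMGA1 down to the IGF2BP genes. HMGA1 stood first and HMGA2 second, followed by IGF2BP2 (12.3 CPM per kilobase in the knockout, 10.4 in the wild-type library) and IGF2BP3 (11.7 and 8.30). In the knockout library the counting intervals of IGF2BP2 and IGF2BP3 overlapped (11.7 to 12.9 and 11.1 to 12.3), and in the wild-type library they did not (9.87 to 11.0 and 7.83 to 8.79). LIN28A, IGF2BP1 and LIN28B lay between 0.0216 and 0.156 CPM per kilobase, and the intervals of neighbours in that order overlapped in both libraries. With the length of all annotated exons, HMGA2 stood at 7.58 and 3.48 CPM per kilobase, below IGF2BP2 at 9.58 and 8.13, so its second place depends on the length used.

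**Figure D3:**
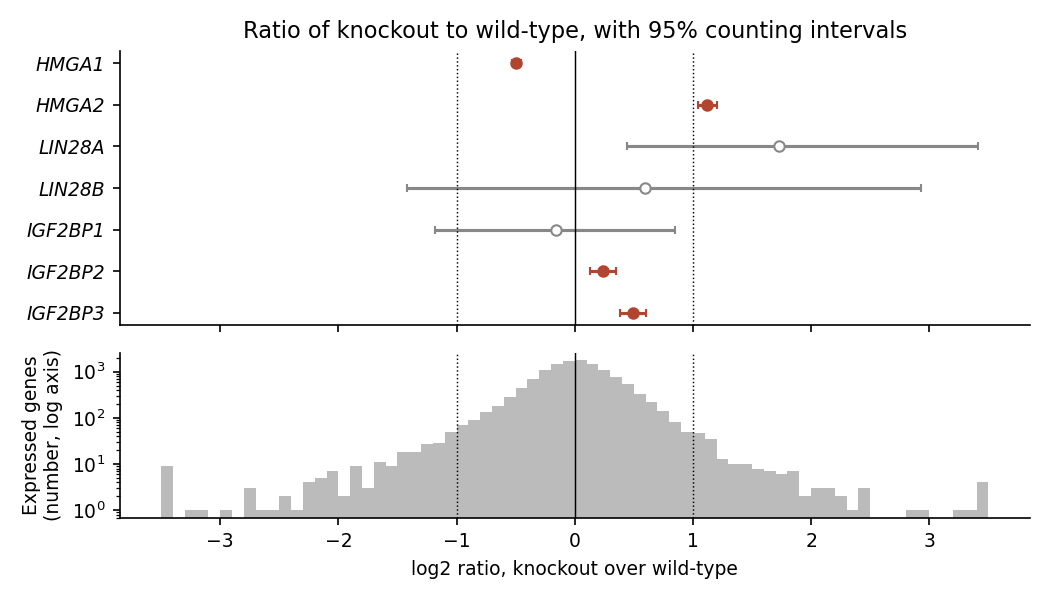
Log2 ratio of knockout over wild-type for each gene with its 95% counting interval (upper panel; open grey symbols lie below 1 CPM) above the number of expressed genes per ratio bin on a log axis (lower panel; ratios beyond 3.5 are placed in the end bins). Dotted lines mark 2-fold. The HMGA2 ratio (1.12) and its whole interval lie to the right of the 2-fold line, and those of HMGA1, IGF2BP2 and IGF2BP3 lie inside it.

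The genes beside each member were examined to see whether the ratios follow a stretch of chromosome. Of the 3 nearest protein-coding genes on each side of every member, 42 in all, 31 were expressed. Of those 31, 0 were called higher and 1 was called lower, beside 1.28% and 1.64% of all expressed genes. The lower one was GRM4 next to HMGA1, a glutamate receptor with 18 counts in the knockout and 56 in the wild-type library (log2 ratio -1.54, interval -2.42 to -0.78). On the other side of HMGA1, SMIM29 stood at -0.13 and NUDT3 at -0.33. The overlapping readthrough gene RPS10-NUDT3, at -0.32, shares reads with NUDT3. The 4 expressed neighbours of HMGA2 ranged from -0.12 (LLPH) to 0.41 (TMBIM4), with MSRB3 at 0.17 and LEMD3 at 0.14, all below the HMGA2 ratio of 1.12. Beside IGF2BP3, MALSU1 (0.19) and TRA2A (0.24) were the nearest, and the 5 expressed neighbours ranged from -0.26 for NUPL2 (interval -0.45 to -0.07) to 0.93 for FAM221A (53 and 29 counts), with CCDC126 at -0.07. GPNMB, also beside IGF2BP3 and below the expression limit, had 9 counts in the knockout and 27 in the wild-type library (log2 ratio -1.46, interval -2.78 to -0.38). Near LIN28B, GRIK2 was below the expression limit, with 16 counts in the knockout and 1 in the wild-type library (16.8-fold, interval 2.62 to 706). The 5 expressed neighbours of LIN28B ranged from -0.16 to 0.52.

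CREB1 acts through promoters, so the RefSeq promoter windows of the members (250 bases before to 50 after the start, GRCh38.p14) were searched for the cAMP response element. Entries for HMGA1, IGF2BP2, IGF2BP3 and LIN28B were found, 7 windows in all, and HMGA2, LIN28A and IGF2BP1 had none. The full element TGACGTCA, present in 1.85% of 35116 windows, was in 0 of the 7. The short form TGACG, searched on both strands and contained in the full one, is present in 24.6% of windows and was found in 1, a window of HMGA1. CACGTG, the E-box bound by MYC and related factors, is its own reverse complement and present in 7.26% of windows. It was found in the window of IGF2BP3 at 2 places and in 1 window of LIN28B. The windows of IGF2BP2, higher in the knockout library like IGF2BP3, and the other window of HMGA1 held none of these motifs. A link between motifs and direction was not tested. The windows of HMGA1 (chr6:34236623-34236922, plus strand) and IGF2BP3 (chr7:23470442-23470741, minus strand) are shown because these expressed members differ in direction, with the short element of HMGA1 and the E-boxes of IGF2BP3 in capitals.
HMGA1 promoter: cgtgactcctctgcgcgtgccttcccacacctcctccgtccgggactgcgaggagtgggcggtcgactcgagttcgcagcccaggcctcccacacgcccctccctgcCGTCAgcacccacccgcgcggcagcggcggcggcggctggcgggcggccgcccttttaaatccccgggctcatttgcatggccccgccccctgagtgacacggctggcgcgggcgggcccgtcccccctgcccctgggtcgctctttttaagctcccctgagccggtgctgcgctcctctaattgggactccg
IGF2BP3 promoter: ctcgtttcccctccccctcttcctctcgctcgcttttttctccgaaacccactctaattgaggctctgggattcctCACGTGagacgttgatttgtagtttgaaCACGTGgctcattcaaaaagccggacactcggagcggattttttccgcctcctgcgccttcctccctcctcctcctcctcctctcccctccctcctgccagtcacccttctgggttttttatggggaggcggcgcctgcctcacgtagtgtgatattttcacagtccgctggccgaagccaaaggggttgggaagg
The short element of HMGA1 is on the reverse strand, 143 bases before the annotated start. The E-boxes of IGF2BP3 begin 174 and 146 bases before it. These are letters in a window, and binding was not measured.

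Mature let-7 was not measured, since the libraries were not made with a small RNA protocol. The 10 let-7 and miR-98 hairpin genes with a row had 0 counts in both libraries. Of the longer transcripts that carry them, 5 were expressed and 0 were called. They ranged from -0.23 for WDR82 to 0.38 for HUWE1, and MIRLET7BHG, the host of let-7a-3 and let-7b, had 429 and 410 counts (log2 ratio 0.14, interval -0.06 to 0.34). In the let-7 biogenesis and decay list, 0 of 23 expressed genes were called, and the median log2 ratio was 0.11. Among all expressed genes the median was 0.01, with 1.28% called higher and 1.64% lower. The farthest from 0 were PRKRA, a Dicer partner (-0.35), and AGO1, an Argonaute protein (0.34). The enzymes that work with LIN28, named here for that role after their values were seen, were TUT4 (0.09) and TUT7 (0.18), which add uridines to the let-7 precursor, and DIS3L2 (0.29), which degrades it. DROSHA stood at 0.22 and DICER1 at -0.01. TRIM71, itself a let-7 target, had 2 counts in the knockout and 0 in the wild-type library.

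Other known let-7 targets lay on both sides of no difference. Of 34 expressed genes, 1 was called higher and 1 lower, beside 1.28% and 1.64% of all expressed genes. These targets were chosen with earlier results of these data known, so nothing is read from those counts. In this list 17 lay above and 17 below 0. The median log2 ratio was -0.01 (0.06 with total-count scaling and 0.01 with no filter or with one at 5 CPM). COL3A1, a fibrillar collagen, was the higher one, with 69 counts in the knockout and 7 in the wild-type library (10.4-fold, interval 4.77 to 26.8). MYC, the proliferation-linked transcription factor, was the lower one (1889 and 4334 counts, log2 ratio -1.12, interval -1.20 to -1.05). Among others, chosen after their values were seen, IGF1R stood at 0.71, CDK6 at 0.43 and NRAS at 0.01.

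Genes with a let-7 seed match were compared with the rest across the whole table. Leaving out the members, 1174 of 11550 expressed protein-coding genes with an annotated 3′ UTR had at least 1 match. Their median log2 ratio was 0.02, against 0.01 for the 10376 genes without a match. Called higher were 0.937% of genes with a match and 1.24% of those without, and called lower were 1.96% and 1.57%. The 20 genes with 3 or more matches had a median of 0.16, with 0 called, and their median 3′ UTR was 6519 bases long, against 1000 bases in genes without a match. In 4 groups of equal size by 3′ UTR length, from shortest to longest, the medians of genes with a match were -0.011, 0.0041, 0.024 and 0.022. Those of genes without one were -0.016, -0.00045, 0.015 and 0.037, so genes with a match had the higher median in the first 3 groups and the lower one among the longest 3′ UTRs. The ratios of the 20 genes with 3 or more matches ran from -0.64 to 0.73, and HMGA2 at 1.12 lay above them. Only 0.861% of all expressed genes were at least as high as HMGA2, which was chosen with its ratio in view. Nothing is therefore read from its place above those genes.

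**Figure D4:**
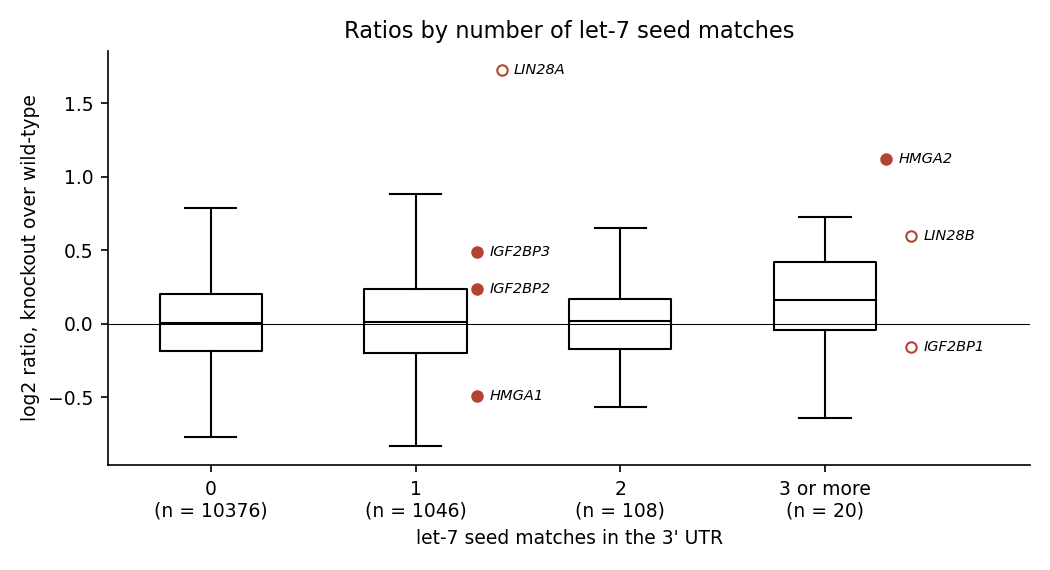
Log2 ratio of knockout over wild-type for expressed protein-coding genes by the number of let-7 seed matches in the 3′ UTR, with the median, quartiles and whiskers to 1.5 interquartile ranges (points beyond not drawn), and the members as red dots (open below 1 CPM). The medians of genes with 0, 1, 2 and 3 or more matches are 0.01, 0.01, 0.02 and 0.16, and HMGA2 (1.12) and HMGA1 (-0.49) sit on opposite sides of them.

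RNAs listed from prior knowledge as bound by the IGF2BP proteins differed in direction, and binding was not measured here. The list was also chosen with earlier results of these data known, so nothing is read from its number of calls. Of 25 expressed genes in this list, 1 was called higher and 2 lower, beside 1.28% and 1.64% of all expressed genes. The median log2 ratio was -0.08. Lower were H19, an imprinted long noncoding RNA, with 54 counts in the knockout and 231 in the wild-type library (4.07-fold lower, interval 3.01 to 5.57), and MYC as above. Higher was FN1, fibronectin, with 741 and 319 counts (2.44-fold, interval 2.14 to 2.80). PEG10, an imprinted gene of retrotransposon origin chosen after its value was seen, had 539 and 286 counts and a ratio of 1.98-fold, just under the 2-fold limit, and it passed that limit with total-count scaling. IGF2, the growth factor that gave the family its name, had 95.34 and 95.35 expected counts (log2 ratio 0.07, interval -0.35 to 0.50). ACTB (log2 ratio 0.15, interval 0.12 to 0.18) and CD44 (0.20, interval 0.15 to 0.26) were higher by more than counting error and not called.

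Genes linked to HMGA proteins were mixed as well. Of 23 expressed genes, 2 were called higher and 1 lower, with a median log2 ratio of 0.08. Over all expressed genes, 1.28% were called higher and 1.64% lower. This list too was chosen with earlier results of these data known, so nothing is read from its number of calls. IGFBP3, an insulin-like growth factor binding protein, had 306 counts in the knockout and 58 in the wild-type library, a ratio of 5.55-fold (4.18 to 7.48). VIM, the intermediate filament vimentin, had 316 and 92 counts (3.61-fold, 2.86 to 4.61). STC2, a secreted glycoprotein hormone, had 393 and 1081 counts, 2.61-fold lower (2.33 to 2.94). Under the expression limit, its relative STC1 had 37 and 3 counts (13.0-fold higher, 4.11 to 65.8). PTGS2, also under the limit, had 2 and 15 counts (7.13-fold lower, 1.66 to 64.2). Both are called when no filter is used. The other high mobility group families had 0 of 7 expressed genes called and a median of 0.03, with HMGN2 at 0.39 and HMGN4 at -0.31 farthest from 0. HMGB1 had a log2 ratio of 0.03 (interval -0.01 to 0.06).

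**Figure D5:**
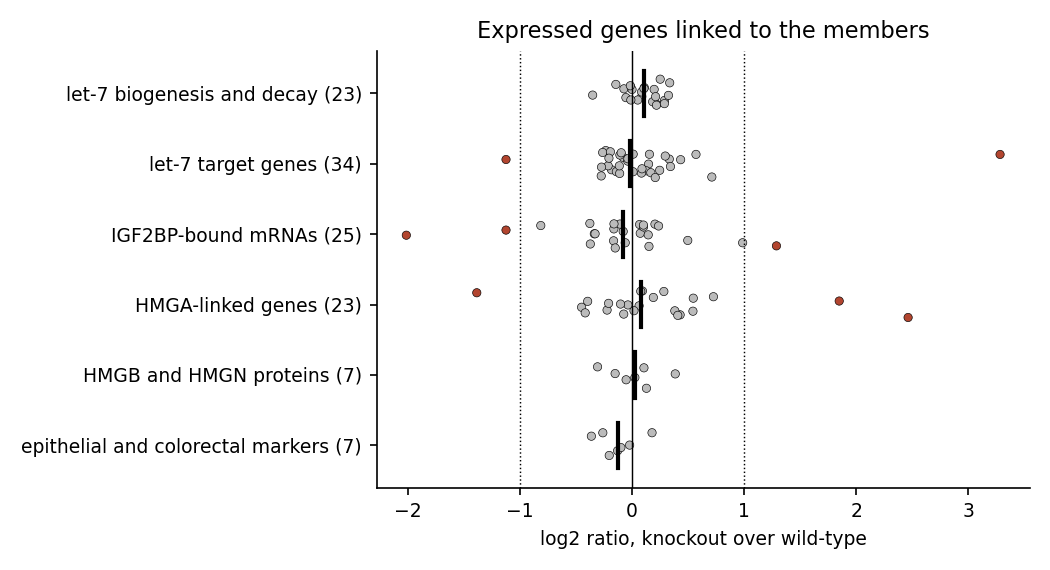
Log2 ratio of knockout over wild-type for each expressed gene of 6 lists (number of expressed genes in brackets), with called genes in red, others in grey, a black bar at each median and dotted lines at 2-fold; vertical scatter has no meaning. Medians lie between -0.13 and 0.11, and called genes are found in the let-7 target, IGF2BP-bound and HMGA-linked lists.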

How the data were processed

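RNA was measured in 1 CREB1 knockout and 1 CREB1 wild-type HCT116 library. The authors deposited expected counts per gene, not scaled between libraries. The submitters' processing notes name RSEM 1.2.26, STAR 2.4.2a, cutadapt 2.0 and hg19. No source used here gives the annotation release, strand setting or filters. Columns were assigned by genotype name. GENCODE release 29 named 52338 of 57820 identifiers, and the others, which held 35.2% of knockout and 37.0% of wild-type counts, stayed in the totals.

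Expected counts were rounded and scaled with TMM (edgeR 4.0.16, R 4.3.3). Log2 ratios used a prior count of 0.5. Ratios given as folds are plain ratios of CPM without a prior count, so they differ from the log2 ratios at low counts. Ratio intervals are exact (Clopper-Pearson, conditional binomial) and, like the Poisson intervals of levels, cover counting error only. With 1 library per group no p-value was computed. Lengths and 3′ UTRs are those of the APPRIS principal transcript with the longest 3′ UTR. The calling rule was tried on simulated counts that vary by counting error only. That says nothing about variation between clones, cultures or library preparations.

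Named were all members, called genes of each list (up to 4) or otherwise the 2 farthest from 0, and the 3 most alike genes. The neighbours, antisense genes and pseudogenes named are a selection. Other list genes were chosen for naming after their values were seen. The members and lists were chosen with earlier results of these data known. Alternatives were total counts, DESeq2 1.42.0 and upper-quartile factors, totals without the 5 highest genes, a prior count of 2, no filter or a mean CPM of at least 5, and unrounded counts.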

Additional observations from a re-analysis of the deposited data

How the results depend on the processing

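HMGA2 was called higher under all 8 alternatives, with log2 ratios of 1.10 (DESeq2 size factors) to 1.19 (total counts). Of 56 recomputed member ratios, 55 stayed within their counting interval, 0 changed sign, and the other was HMGA1 with total counts (-0.42). The alternatives that change only the expression filter reuse the main ratios, so those could not move. For LIN28A, LIN28B and IGF2BP1 the intervals are so wide that staying inside them says little. Without the expression filter 2 members were called higher, HMGA2 and LIN28A, and the calls over all genes were 451 higher and 635 lower, in place of 165 and 211. At a mean CPM of at least 5 they were 75 and 62. With total counts 54.6% of called genes were higher (201 and 167), in place of 43.9%, and at a mean CPM of at least 5 the share was 54.7%. None of 79 list medians moved by 0.1 or more, and 5 of 158 list counts of calls moved by over 1.5 times. Medians near 0 changed sign for let-7 targets (0.06 with total counts) and the IGF2BP-bound list (0.0032 with the filter at 5 CPM). That of HMGB and HMGN genes did too (-0.01 without the filter). At a mean CPM of at least 5, COL3A1 and H19 left the tested genes. After seeing the data, an 8-base seed match was also tried, and the difference between medians of genes with and without a match was 0.016, against 0.011 with 7 bases. No paired analysis was possible because each group has 1 library. The depth limits LIN28A, LIN28B and IGF2BP1, whose counts of 4 to 20 leave wide intervals.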
